A study of Mus musculus with 2 samples.

Results

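Genes of the erythroblastic island were followed across marker-gated liver cells: 8 of the 26078 genes in the deposited matrix, chosen by gene symbol for known roles in island adhesion and nucleus clearance. They are the adhesion genes Vcam1, Itga4, Itgb1, Itgav, Maea, Icam4 and Siglec1, and Dnase2a, which encodes the lysosomal nuclease that degrades DNA of engulfed nuclei. Nonparenchymal liver cells, freed by collagenase perfusion, had been enriched for macrophages on F4/80-coated magnetic beads (F4/80 is a macrophage surface antigen). They came from 1 Spta wt/wt and 1 Spta sph/sph littermate, both male, aged 8 to 10 weeks and untreated. Mice homozygous for sph lack functional alpha-spectrin of the red cell skeleton, and the series is about what erythrophagocytosis does to macrophages in the liver. For each mouse, 10000 cells were targeted for capture, and transcripts were sequenced from the 3' end with unique molecular identifiers (UMIs), so that 1 UMI stands for 1 captured transcript whatever its length.

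The barcodes end in 1 or 2, and no label ties a number to a mouse. Values are therefore given for library 1 and library 2, with no genotype attached. With 1 mouse per genotype and cells that are not replicates, no test between libraries was possible, and the difference between libraries has no replicate check. All intervals are exact 95% intervals and cover counting error only.

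An erythroblastic island is a macrophage ringed by erythroblasts, the red cell precursors. On the macrophage, VCAM1 binds the α4β1 integrin (Itga4 with Itgb1) of the erythroblast, the αV integrin (Itgav) binds ICAM4 of the erythroblast, and MAEA is found on both partners. Siglec1 (sialoadhesin, CD169) binds sialylated glycans on neighbouring cells, and the macrophage takes up the nucleus that the maturing erythroblast expels. In adult mice, islands are a feature of bone marrow and spleen, and they can form in the liver under anemic stress.

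In GRCm38, the build of the annotation used, Vcam1 (ENSMUSG00000027962) lies on the minus strand at chr3:116109949-116129688 and overlaps the antisense gene Gm43109. Itga4 (ENSMUSG00000027009) lies at chr2:79255426-79333123 and overlaps Cerkl on the other strand, and Itgav (ENSMUSG00000027087) at chr2:83724397-83806916. Itgb1 (ENSMUSG00000025809) lies at chr8:128685654-128733200 and Maea (ENSMUSG00000079562) at chr5:33335509-33373296. Icam4 (ENSMUSG00000001014) lies at chr9:21029373-21030595 and overlaps the antisense gene Gm47079. Siglec1 (ENSMUSG00000027322) lies on the minus strand at chr2:131069220-131086765, and Dnase2a (ENSMUSG00000003812) at chr8:84908560-84922915 overlaps Mast1 on the other strand. All 8 are protein coding.

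The RefSeq promoter table (GRCm38.p6) matched 5 of the 8 genes: Itga4, Itgb1, Itgav, Icam4 and Dnase2a. Upstream sequence is shown for Itga4 and Icam4, the only 2 of the 8 that were higher in erythroid-gated than in Kupffer-gated cells. The 250 bases before the start of Itga4 (chr2:79255176-79255425, plus strand) are printed first. A stretch of 25 bases of the Icam4 window follows (chr9:21029374-21029398, plus strand), which lies in the 5' UTR of the longer annotated Icam4 transcript. Capitals mark matches to GATAA, the core of the GATA factor motif, and to CACCC, the core of the KLF1 motif, each searched on both strands, where TTATC and GGGTG are the minus-strand forms; no 2 matches overlap.
Itga4: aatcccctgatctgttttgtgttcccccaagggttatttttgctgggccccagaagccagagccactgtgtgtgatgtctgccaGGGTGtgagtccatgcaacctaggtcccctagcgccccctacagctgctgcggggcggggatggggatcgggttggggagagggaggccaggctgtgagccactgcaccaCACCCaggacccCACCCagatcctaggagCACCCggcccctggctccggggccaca
Icam4: ggccaGGGTGccttcTTATCtcctg
The Itga4 window held 4 CACCC matches and 0 GATAA matches. At least 4 CACCC matches were found in 2.14% of the 32851 upstream windows of this length, and at least 1 in 52.0%. The Icam4 window held 1 match of each motif. At least 1 of each was found in 10.1% of all windows, and GATAA in 22.6%. In the other 3 windows GATAA was not matched, and CACCC was matched 2 times in Itgb1, 1 time in Itgav and 1 time in Dnase2a. Such a match is a description of letters only.

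Library 1 held 8907 barcodes with 33099802 UMIs and library 2 held 9726 barcodes with 56947765 UMIs. Cells with 200 or more genes and a mitochondrial share of no more than 20% were kept, 3488 and 6942 in all, with a median of 2848 and 4596.5 UMIs. In all, 955 barcode sequences occurred in both libraries. Of the kept cells of library 1, 815 (23.4%) shared their sequence with a barcode of library 2 that held over 5 times as many UMIs, against 44 (0.634%) the other way round. These are called shallow shared barcodes, and results that rest on them are also given without them.

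Cells were assigned to a lineage by summed marker UMIs. The Kupffer gate, for resident liver macrophages, took 2208 cells of library 1 (539 shallow shared) and 4392 cells of library 2 (28 shallow shared). The endothelial gate took 268 and 121 cells, and the erythroid gate took 128 and 815 cells. Of the 128 erythroid-gated cells of library 1, 127 were shallow shared barcodes, so erythroid values are given for library 2 alone. These were split by the share of globin UMIs into 168 early cells (under 10%), 210 middle cells (10 to 40%) and 437 globin-rich cells (40% or more). A gate is a range of marker level, not a type: in library 2, 275 cells lay within 20% above and 282 within 20% below the Kupffer cut, 54 and 62 did so for the erythroid cut, and 11 and 16 for the endothelial cut. The 10 Kupffer markers, among them Clec4f, Vsig4 and Timd4, were all detected in the Kupffer-gated cells of both libraries. Globin was also found outside the erythroid gate: it made up 3.65% of UMIs in lymphoid cells (B, T and natural killer gates) of library 2, against 0.0101% in library 1. In Kupffer-gated cells it made up 5.68% in library 2 and 0.224% in library 1. The value of library 1 includes its shallow shared barcodes. Per 1000000 non-globin UMIs, erythroid markers were 238 in those Kupffer-gated barcodes and 6.42 in the others of library 1. How much of the globin was free RNA and how much came from attached or engulfed erythroid cells was not tested.

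**Figure D1:**
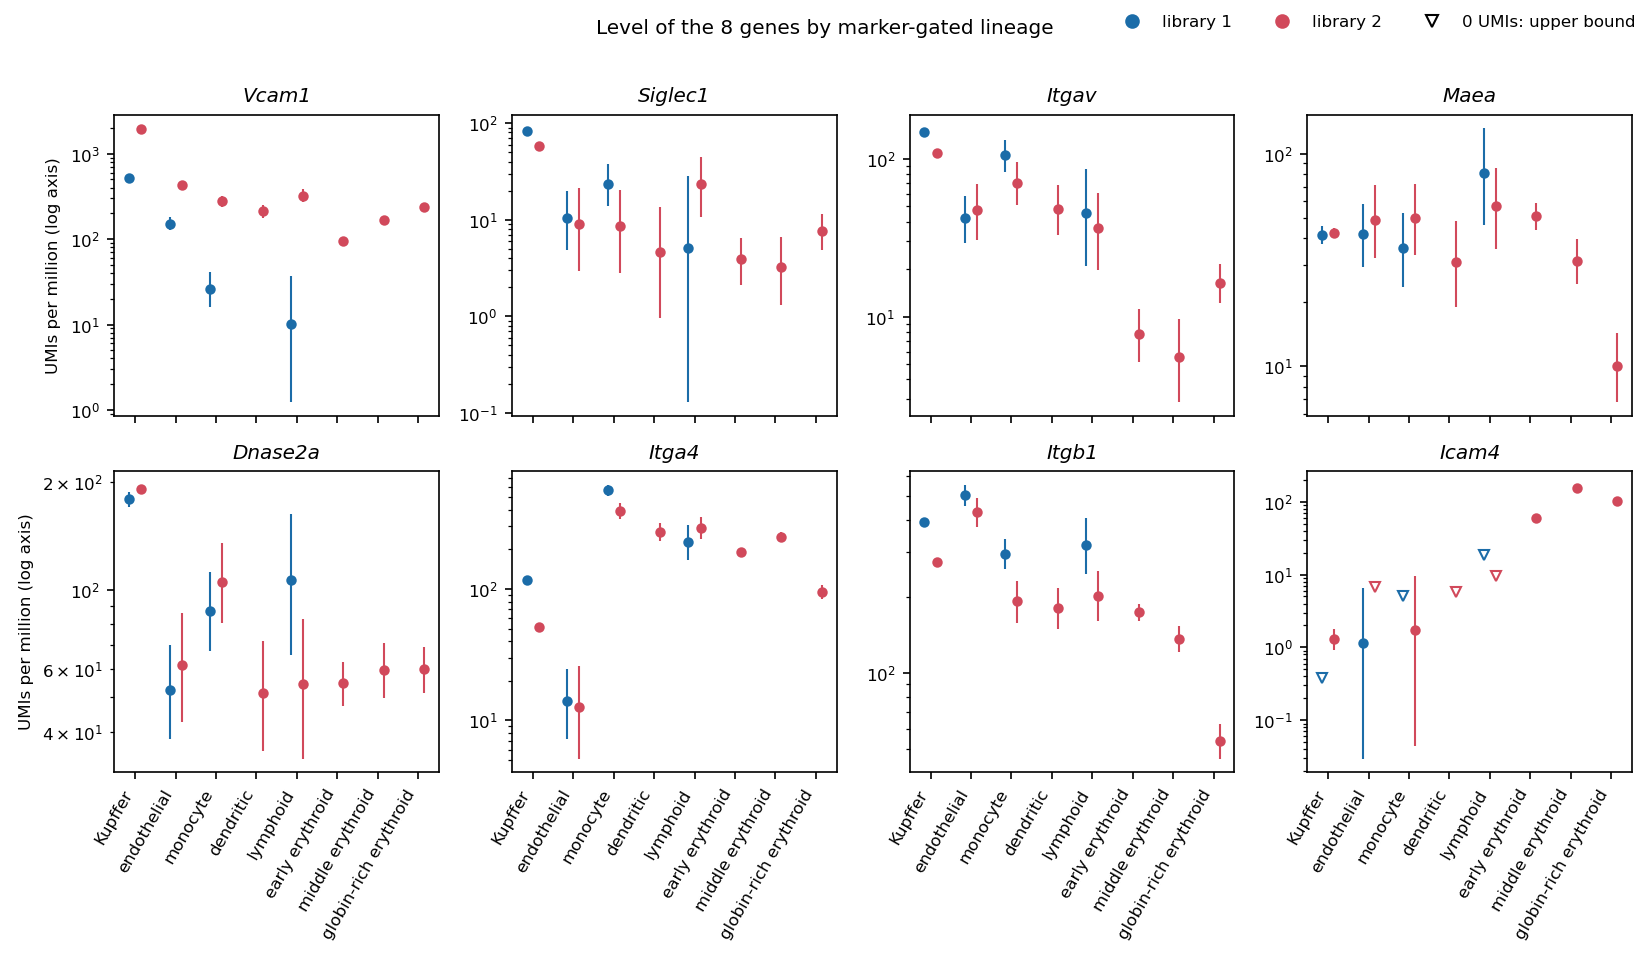
CPM of each gene (log axis; CPM is UMIs per 1000000 UMIs of the group) in each gated lineage, with exact 95% Poisson intervals; blue is library 1, red is library 2, and a triangle marks the upper bound where 0 UMIs were counted. Erythroid stages are shown for library 2 alone and dendritic cells of library 1 (45 cells) are left out. Vcam1 was highest in Kupffer-gated cells, Itga4 in monocytes and Icam4 in erythroid stages.

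On the macrophage side, Vcam1 was the most abundant of the 8 genes in Kupffer-gated cells. Among the 7 that reached the minimum level for a comparison, it differed most between the libraries. Library 1 had 5061 Vcam1 UMIs, or 512 per 1000000 UMIs (CPM; interval 498 to 527). Library 2 had 56595, or 1956 CPM (1940 to 1972), a 3.82-fold difference (log2 1.93, 1.89 to 1.97). Without shallow shared barcodes, the level in library 1 was 468 CPM. The 539 shallow shared Kupffer-gated barcodes of library 1 stood apart from the others, at 1731 against 468 CPM of non-globin UMIs, near the 2074 CPM of library 2.

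The difference lay across the cells and not in a few of them. After each cell was thinned to 2000 UMIs, which left out 862 cells of library 1 and 1513 of library 2 as too shallow, the median Kupffer-gated cell held 1 Vcam1 UMI in library 1 and 4 in library 2. No Vcam1 UMI was found in 48.7% of the thinned cells in library 1 and in 6.15% in library 2. Unthinned, 66.9% and 89.6% of Kupffer-gated cells held a Vcam1 UMI, at median depths of 3430 and 5310 UMIs. At least 5 UMIs were found in 2.23% of the thinned cells of library 1 and 37.5% of those of library 2. Lymphoid cells, which should lack the gene, had 10.1 CPM in library 1 and 323 CPM in library 2. The part of such background in the shares of Kupffer-gated cells was not tested. In library 1, cells with at least 3 cell cycle markers had 436 CPM of non-globin UMIs (384 to 493) beside 518 in the rest. Those intervals do not overlap, but shallow shared barcodes, at 1731 CPM, were not left out. All other barcodes of library 1 together had 468 CPM (455 to 482), inside the interval of the cells with cell cycle markers. In library 2 the levels were 2061 beside 2075, with intervals that overlap.

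The other macrophage genes were lower in library 2 or close to level. Siglec1 was 82.1 CPM in library 1 and 58.6 in library 2 (log2 -0.49, -0.61 to -0.36). Itgav was 148 and 109 CPM (log2 -0.44, -0.53 to -0.35). Dnase2a, the nuclease, was 179 and 191 CPM (log2 0.10, 0.02 to 0.17), and Maea was 41.6 and 42.4 CPM (log2 0.03, -0.14 to 0.19). For these 4 genes, the whole interval lay inside 2-fold.

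The α4β1 chains, which macrophages also carry, were lower in library 2. Itga4 was 118 CPM in library 1 and 51.3 in library 2 (log2 -1.20, -1.31 to -1.09), the only gene of the 8 to be lower past 2-fold, and 121 CPM in library 1 without shallow shared barcodes. Itgb1 was 394 and 274 CPM (log2 -0.52, -0.58 to -0.47). Icam4 had 0 UMIs in 2208 cells of library 1, where 3 UMIs would be 0.304 CPM, and 38 UMIs (1.31 CPM) in library 2. With library 1 set to a floor of 3 UMIs, the log2 ratio was 2.11, and the exact interval started at 1.74. Under 10 alternative settings the floor ratio lay between -0.32 and 3.10. In library 2 the gene lay below the 10 CPM needed for a comparison. Only the setting without a minimum level compared it, and there it was past 2-fold higher.

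A gene was counted as past 2-fold when the ratio was at least 2 in either direction with an interval that excludes 1, among genes with at least 10 CPM and 30 UMIs in 1 of the groups. By this rule 2 of the 7 measurable genes differed in Kupffer-gated cells, Vcam1 higher and Itga4 lower, beside 11.5% of the 8217 genes tested (2.45% higher, 9.09% lower). The median log2 ratio of the 7 was -0.44, and that of all tested genes -0.33. Itgb1, Siglec1 and Itgav thus lay close to the median of all genes, and Vcam1 and Itga4 away from it.

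**Figure D2:**
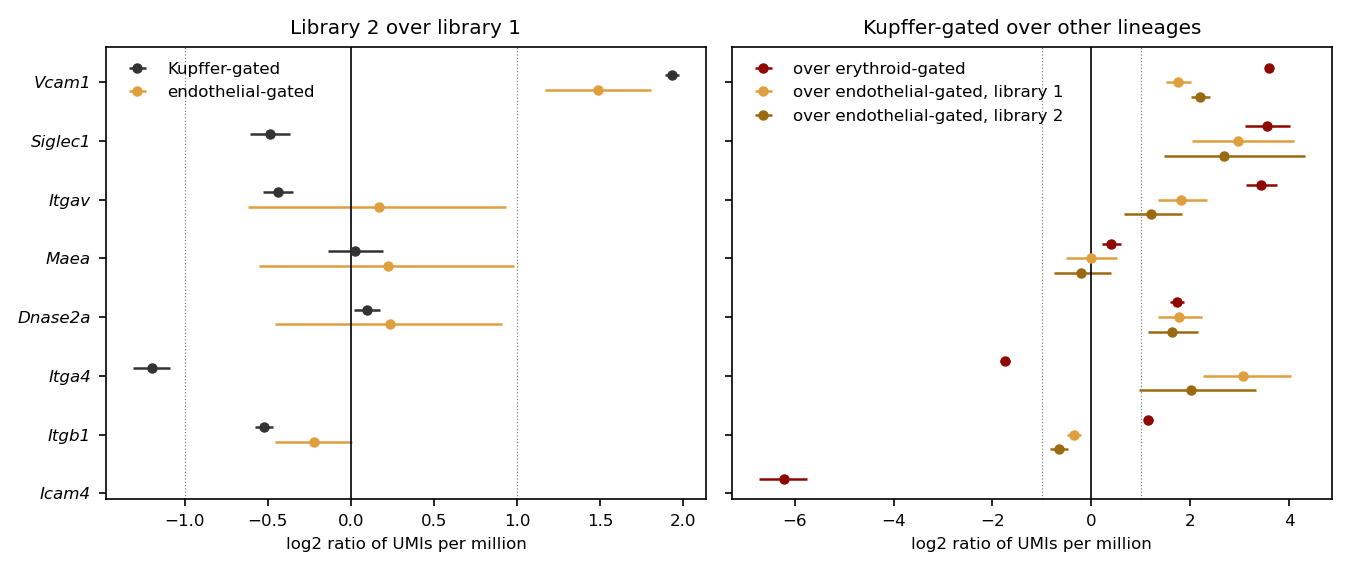
Log2 ratios of CPM with exact 95% intervals for the 8 genes; dotted lines mark 2-fold, and genes below the minimum level are left blank. On the left, Vcam1 stands to the right of 1 and Itga4 (Kupffer-gated cells) to the left of -1 between libraries. On the right, Itga4 and Icam4 lie left of 0 for Kupffer-gated over erythroid-gated cells.

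In endothelial-gated cells, whose sinusoidal members carry Vcam1 as a leukocyte adhesion molecule, library 1 had 130 Vcam1 UMIs (151 CPM, 127 to 180) and library 2 had 234 (424 CPM, 372 to 482), a log2 ratio of 1.49 (1.17 to 1.81). It was the only 1 of 5 measurable genes past 2-fold, beside 12.9% of 5253 genes tested (3.79% higher, 9.12% lower). Under a stricter gate, which left 198 and 47 cells, the levels were 154 and 265 CPM and the gene was no longer past 2-fold (log2 0.78). Kupffer-marker RNA in the same cells was 2054 CPM in library 1 and 5876 CPM in library 2, of which Marco alone was 57.1 and 2084 CPM. Without Marco it was 1997 and 3792 CPM, and its part in the difference was not tested. Itgb1 was 503 and 431 CPM, the most abundant of the 8 here in library 1 and level with Vcam1 in library 2, while Itgav, Maea and Dnase2a had intervals that included a ratio of 1.

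Vcam1 was set against the RNA of the 10 Kupffer markers to see where it exceeded what free Kupffer RNA would give. In library 2, Kupffer-gated cells held 51.5 Vcam1 UMIs per 1000 Kupffer-marker UMIs (51.0 to 51.9), and lymphoid cells, which should lack the gene, held 51.9 (43.0 to 62.2). Lymphoid cells of library 2 had 323 CPM of Vcam1, and 61.5% of them held a UMI at a median depth of 2466 UMIs (41.5% after thinning to 2000), against 10.1 CPM and 2 UMIs in all in library 1. Vcam1 was the 1 of 3 measurable genes past 2-fold between the libraries in lymphoid cells, beside 11.2% of 1998 genes tested (6.76% higher, 4.45% lower). Early erythroid cells held 55.0 per 1000 (49.2 to 61.3), monocytes 58.4 (49.5 to 68.5) and dendritic cells 61.7 (51.5 to 73.4), which all overlap the Kupffer ratio. The middle cells, at 59.3 (53.2 to 66.0), the globin-rich cells, at 66.1 (61.2 to 71.2), and the endothelial cells, at 72.2 (62.9 to 82.4), lay above it. The endothelial ratio was 73.7 (61.2 to 88.2) in library 1, where the Kupffer-gated cells held 18.7 (18.2 to 19.2). Other lineages of library 1 did not all sit at that level. Monocytes lay below it at 7.98 (4.80 to 12.5) and dendritic cells above it at 68.5 (50.0 to 91.8). Lymphoid cells held 5.01 (0.605 to 18.2), on 2 Vcam1 UMIs. Marco, a scavenger receptor, weighs on this denominator: it was 1047 and 12612 CPM in the Kupffer-gated cells of the 2 libraries. Of the 10 Kupffer markers there, 4 were higher in library 2, Marco among them. The other 6 were lower, among them Clec4f, Vsig4 and Timd4. With Marco left out, a choice made after seeing the data, the ratios of library 2 were 77.0 (76.4 to 77.7) in Kupffer-gated cells, 85.1 (70.3 to 102) in lymphoid, 86.9 (77.6 to 97.001) in early, 96.2 (86.1 to 107) in middle, 107 (99.1 to 116) in globin-rich and 112 (97.3 to 128) in endothelial cells. Dendritic cells, which had overlapped the Kupffer ratio with Marco counted, now lay above it at 98.5 (82.0 to 118). The other lineages overlapped the Kupffer ratio or lay above it as before, early cells only just overlapping. In library 1 the ratios were then 19.5 in Kupffer-gated and 75.8 (63.0 to 90.7) in endothelial cells. The Vcam1 UMIs of early erythroid and lymphoid cells are not read here as expression.

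**Figure D3:**
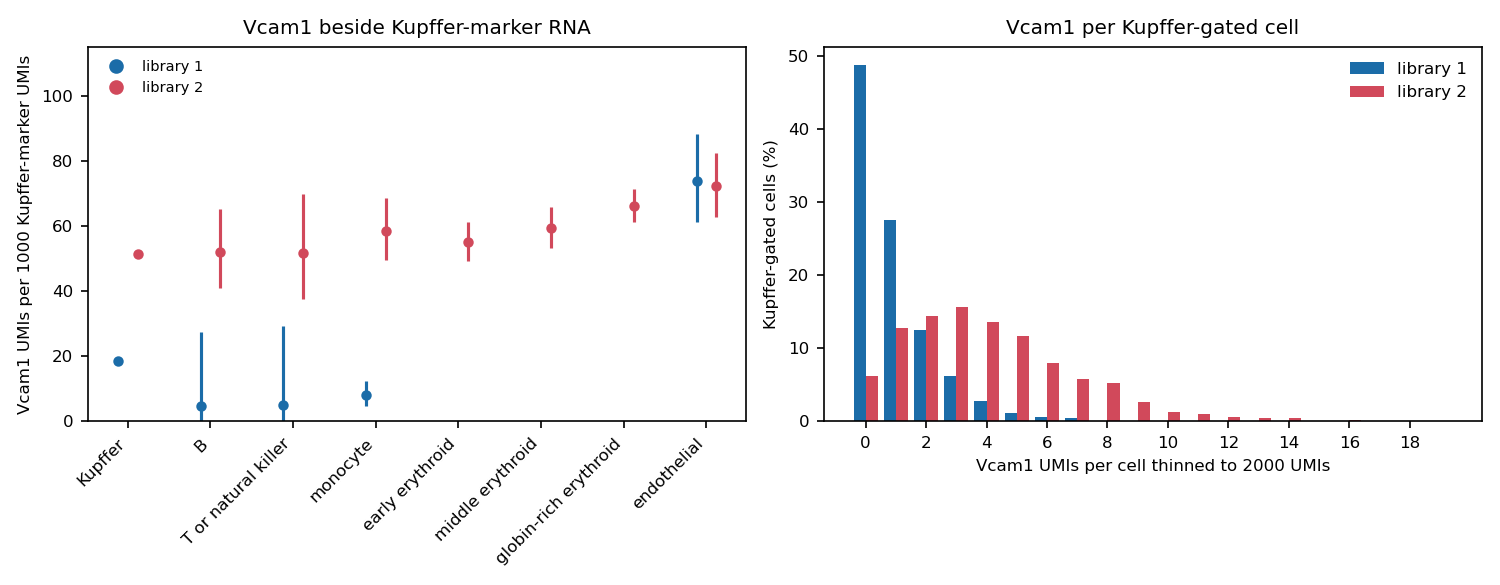
On the left, Vcam1 UMIs per 1000 Kupffer-marker UMIs by gated lineage, with exact 95% intervals (blue library 1, red library 2; erythroid stages library 2 alone); B, T or natural killer and early erythroid cells of library 2 overlap the Kupffer level and endothelial cells sit above it. On the right, the share of Kupffer-gated cells (%) with each number of Vcam1 UMIs after thinning to 2000 UMIs per cell, with a median of 1 in library 1 and 4 in library 2.

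The partners separated by lineage in library 2, where Kupffer-gated and erythroid-gated cells were measured together. Vcam1 was 1956 CPM in Kupffer-gated and 162 CPM in erythroid-gated cells (log2 3.59, 3.51 to 3.67), Siglec1 58.6 and 5.01 CPM (log2 3.55), Itgav 109 and 10.1 CPM (log2 3.43) and Dnase2a 191 and 57.7 CPM (log2 1.73). Itga4, the erythroblast chain that pairs with VCAM1, went the other way at 51.3 and 173 CPM (log2 -1.75, -1.85 to -1.64). Icam4, the erythroblast ligand of αV integrin, was 1.31 and 97.6 CPM (log2 -6.22, -6.73 to -5.75). Both sides of these 2 pairs were thus detected in their own lineage.

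In all, 7 of the 8 genes differed past 2-fold between the lineages, beside 58.6% of 8370 genes tested (37.7% higher in Kupffer-gated cells, 20.9% lower). Globin alone made up 27.7% of erythroid-gated UMIs. With globin left out of the total, 6 of 8 were past 2-fold, beside 59.6% of 8741 genes (30.4% higher, 29.2% lower), and the median of all tested genes moved from 0.34 to -0.11. Itgb1 (log2 1.16 with and 0.77 without globin) was the one that no longer passed. Maea was the gene found at like levels in both, at 42.4 and 32.1 CPM, or 44.96 and 44.4 CPM without globin (log2 0.02, -0.17 to 0.21).

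Some RNA of each partner was found in the other lineage. Per 1000 Kupffer-marker UMIs, Siglec1 was 1.54 (1.47 to 1.62) in Kupffer-gated and 1.89 (1.37 to 2.54) in erythroid-gated cells, and its 44 erythroid UMIs are read as background. Dnase2a, by contrast, was 5.04 (4.91 to 5.17) in Kupffer-gated and 21.8 (19.9 to 23.8) in erythroid-gated cells, and in lymphoid cells it was 8.72 (5.39 to 13.4). Per 1000 erythroid-marker UMIs, Icam4 was 15.9 (14.9 to 17.0) in erythroid-gated cells and 4.97 (3.51 to 6.82) in Kupffer-gated cells. Within Kupffer-gated cells of library 2, Icam4 was 0.987 CPM of non-globin UMIs (0.526 to 1.69) in cells with globin under 1% and 2.06 CPM (1.13 to 3.46) in cells with 5% or more, beside 72.5 and 738 CPM of erythroid markers. Vcam1 was 1943 and 2209 CPM in the same cells.

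Droplets that passed both gates were left out of the lineages. There were 126 in library 2 and 4 in library 1, with a median of 1244 UMIs in library 2. They held 1328 CPM of Vcam1, 86.8 of Itga4, 37.0 of Icam4, 161 of Dnase2a and 14.8 of Maea. A macrophage with attached or engulfed erythroblasts and 2 cells loaded by chance cannot be told apart in such a droplet.

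Along the erythroid stages of library 2, the erythroblast genes followed different courses. Itga4 was 190, 250 and 95.01 CPM in early, middle and globin-rich cells. Itgb1 was 173, 136 and 53.5 CPM, Maea 50.8, 31.4 and 10.0 CPM, and Icam4 60.2, 153 and 103 CPM. Globin took 2.75%, 23.2% and 61.1% of the UMIs, so each gene is also given without it. On that scale Itga4 was 195, 326 and 244 CPM, Itgb1 178, 177 and 138 CPM, Maea 52.3, 40.8 and 25.8 CPM, and Icam4 61.9, 199 and 265 CPM.

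Maea was the gene that was lower in globin-rich than in early cells past 2-fold on both scales (log2 2.34, 1.78 to 2.95, for early over globin-rich, and 1.02, 0.46 to 1.63, without globin), but not with mitochondrial UMIs left out as well (log2 0.88). The median of all tested genes lay in the same direction, at log2 1.91 with globin and 0.59 without it. Itgb1 was past 2-fold with globin alone (log2 1.69, and 0.37 without it), and Itga4 changed sign with the scale (log2 0.998 and -0.32). Icam4 was higher in middle than in early cells past 2-fold on both scales (log2 1.34, 1.09 to 1.60, and 1.68, 1.43 to 1.94). Under a stricter erythroid gate this difference was within 2-fold (log2 0.90). Dnase2a was 54.7, 59.5 and 59.9 CPM, level with globin counted, and 56.3, 77.5 and 154 CPM without it, where globin-rich cells were past 2-fold above early cells.

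Of 7 measurable genes, 4 were past 2-fold for early over globin-rich cells, beside 78.6% of 7484 genes tested (71.9% higher in early cells, 6.71% lower): Itgb1 and Maea were higher and Vcam1 and Itgav lower. Without globin it was 5 of 7, 1 higher and 4 lower in early cells, beside 54.6% of 7528 genes (37.4% higher, 17.2% lower). For middle over early cells it was 1 of 6, beside 31.6% of 7287 genes (4.02% higher, 27.5% lower), and without globin 2 of 6, beside 24.4% of 7335 genes (7.95% higher, 16.5% lower). Kupffer-marker RNA differed between the stages too, at 1742, 2808 and 3631 CPM, beside Vcam1 at 95.9, 167 and 240 CPM and Itgav at 7.74, 5.54 and 16.4 CPM. Its part in the Vcam1 and Itgav differences was not tested beyond the ratios above.

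**Figure D4:**
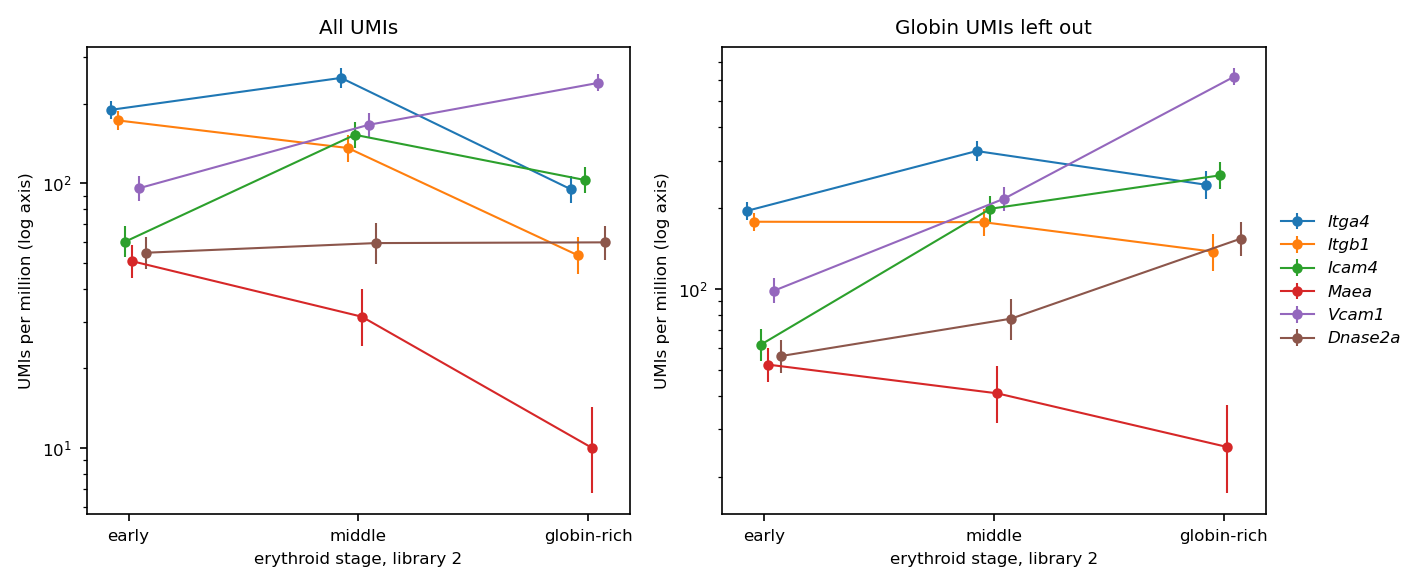
CPM (log axis) of 6 of the genes over the 3 erythroid stages of library 2, with exact 95% intervals, counting all UMIs on the left and leaving globin out on the right. Maea is lower at each later stage in both panels. For middle over early cells on the right, its interval includes a ratio of 1 (log2 -0.36, -0.78 to 0.05). The course of Itga4 and Itgb1 from middle to globin-rich cells depends on the scale.

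Transcripts of both α4β1 chains were found together in a minority of cells. After thinning to 2000 UMIs in all, of which globin took most in globin-rich cells, 20 of 143 early cells (14.0%, 8.76 to 20.8), 16 of 170 middle cells (9.41%, 5.48 to 14.8) and 10 of 400 globin-rich cells (2.5%, 1.21 to 4.55) held a UMI of both Itga4 and Itgb1. Thinned instead to 1000 UMIs other than globin, the 3 stages overlapped: 8 of 160 early cells (5%, 2.18 to 9.61), 5 of 187 middle cells (2.67%, 0.874 to 6.13) and 11 of 356 globin-rich cells (3.09%, 1.55 to 5.46), with 8, 23 and 81 cells left out. In Kupffer-gated cells the share at 2000 UMIs was 11.2% in library 1 and 4.34% in library 2. Unthinned, 82.7% of early erythroid cells held an Itga4 UMI at a median depth of 22285 UMIs, and 31.1% of globin-rich cells did at 6291; in lymphoid cells, which use the same integrin, it was 50.5% at 2466.

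Kupffer-gated over endothelial-gated cells, the comparison with the other large cell type of the sinusoid, gave like results in both libraries. Past 2-fold higher in Kupffer-gated cells were 5 of 7 genes in library 1, beside 32% of 8528 genes tested (14.5% higher, 17.5% lower), and 5 of 7 in library 2, beside 31.6% of 7701 (13.1% higher, 18.5% lower). These were Itga4 (log2 3.08 and 2.02), Siglec1 (2.97 and 2.69), Itgav (1.82 and 1.21), Dnase2a (1.77 and 1.64) and Vcam1 (1.76 and 2.21). Itgb1 was higher in endothelial-gated cells within 2-fold (log2 -0.35 and -0.65), and Maea was level (-0.01 and -0.21).

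Across the gated lineages of at least 50 cells, the order of the levels differed by gene. Itga4 was highest in monocytes in both libraries (562 and 393 CPM), above Kupffer-gated cells by more than the intervals, and dendritic (272), B (226) and erythroid-gated cells (173) of library 2 lay between, where neighbours among these 3 overlapped. Siglec1 was highest in Kupffer-gated cells, and the lineages below it, from 22.6 CPM in B cells to 4.66 in dendritic cells of library 2, each overlapped the next. Dnase2a was highest in Kupffer-gated cells (179 and 191 CPM), then in monocytes (87.4 and 105 CPM), whose intervals overlap those of the next lineage. Itgb1 was highest in endothelial-gated cells, and Maea spanned 31.1 to 52.8 CPM over the 6 lineages of library 2.

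The wider partner lists bear on these genes. In Kupffer-gated cells, 1 of 17 measurable island partners was past 2-fold higher in library 2 and 2 were lower, beside 2.45% higher and 9.09% lower of all 8217 genes. Spic, the transcription factor of iron-recycling macrophages, was 108 and 340 CPM, Palld 53.3 and 23.3 CPM and Cd163, the haptoglobin-hemoglobin receptor also used as an island macrophage marker, 672 and 118 CPM. Mertk and Axl, receptors that recognise phosphatidylserine on expelled nuclei through bridging proteins, were 572 and 461 CPM and 821 and 944 CPM. Klf1, the erythroid transcription factor, was 325 CPM in erythroid-gated and 3.84 CPM in Kupffer-gated cells of library 2.

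Among 5 measurable integrin partner chains in Kupffer-gated cells, 1 was past 2-fold between libraries, beside 11.5% of all genes: Itgb7, the alternative β chain of Itga4, was 28.4 CPM in library 1 and 1.80 CPM in library 2; it was named after its values were seen. Itgb5, a β chain that pairs with Itgav, was 262 and 203 CPM. Itgb3, another such chain, was 1.11 and 5.15 CPM in Kupffer-gated and 23.3 and 221 CPM in endothelial-gated cells. Among 12 measurable nucleases and DNA sensors, 1 was higher and 2 were lower, beside the same 2.45% and 9.09%: Pld3, a lysosomal exonuclease, was 131 and 486 CPM, and Dnase1l3, a secreted DNase, 67.5 and 25.7 CPM. Endothelial-gated cells held far more Dnase1l3, at 2989 and 1827 CPM.

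MAEA is a subunit of the CTLH ubiquitin ligase, and 10 other genes of that complex were all measurable in the erythroid stages. For early over globin-rich cells, 3 were higher and 3 lower past 2-fold, beside 71.9% higher and 6.71% lower of all 7484 genes. Without globin 2 were higher and 5 lower, beside 37.4% and 17.2%. Among those lower in early cells, Ranbp10 was 94.2, 280 and 381 CPM over the 3 stages, Wdr26 144, 276 and 505 CPM and Ypel5 16.9, 65.0 and 121 CPM. Maea, at 50.8, 31.4 and 10.0 CPM, had the direction of the 3 genes that were higher in early cells. Spn, which encodes CD43, a sialylated ligand of Siglec1, was 74.3 and 9.22 CPM in early and middle cells. It had 0 UMIs in globin-rich cells, which was 6.21 lower than early cells on the log2 scale when set to a floor of 3 UMIs. In Kupffer-gated cells, 1 of 9 measurable genes of the complex was past 2-fold between libraries, and 0 of 5 sialic acid lectins and sialoadhesin ligands was, beside 11.5% of all genes.

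The genes whose levels were most like each of the 8 were ranked by Pearson's r of log2(CPM + 10) over 11 lineage-by-library groups, among 6482 genes. The groups share libraries and may share free RNA, and r is a description. Vcam1 was most like Arl6ip1 (0.94), Gfra2 (0.93) and Pld3 (0.93), and Itga4 most like Cxcr4 (0.90), Mbp (0.86) and Rps6ka1 (0.85). Icam4 was most like Btnl10, Abcb10 and Kel (0.996, 0.996 and 0.994). Siglec1 was most like Lilra5, C3ar1 and C1qc (0.98, 0.97 and 0.97), and Dnase2a most like Tmem141, C1qb and Pilrb2 (0.96, 0.95 and 0.95); C1qc and C1qb are markers of the Kupffer gate. Itgav was most like Itpk1 (0.98), Itgb1 most like Dync1h1 (0.98) and Maea most like Ythdf1 (0.96). Among the 8 themselves, Siglec1 and Dnase2a were the most alike (0.83) and Itgav and Icam4 the least (-0.84).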

How the data were processed

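The deposited matrix holds raw UMI counts per gene and barcode for both libraries, which the authors produced using Cell Ranger (version 3.0.1); build GRCm38.p5 and R (3.6.1) are further named, per the submitters' processing notes. Gene positions are from GENCODE vM21, and upstream sequences from RefSeq; the authors' annotation release is not given in the sources used here.

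Barcodes under 200 genes or over 20% mitochondrial UMIs were left out. A gate needed a least number of marker UMIs per 10000 and of markers detected (Kupffer 150 and 5, endothelial 40 and 4, erythroid 20 and 3). Droplets passing 2 gates were left out, and no doublet caller was run. UMIs were summed per lineage and library and scaled to the group's total (CPM), with exact Poisson intervals for levels, conditional binomial ones for ratios and Clopper-Pearson ones for shares. The ratio code was tested on simulated data. From each partner list, genes with at least 50 CPM and 30 UMIs could be named, at most the 3 highest and 3 lowest by ratio, and for each member the 3 genes most like it. The members and lists were chosen with earlier results of these data known. Gate cuts, globin stages and the minimum level were set after the levels were seen. Software: pandas 2.3.3, scipy 1.17.1, numpy 2.4.6 and matplotlib 3.10.9 under python 3.11.15.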

Additional observations from a re-analysis of the deposited data

How the results depend on the processing

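In 10 alternatives, one choice was changed at a time: the mitochondrial limit, the gene minimum, shallow shared barcodes, the denominator, the scaling, the gate, droplets of 2 lineages, the fold and the minimum level. Vcam1 in Kupffer-gated cells lay between 1.70 and 2.13 on the log2 scale for library 2 over library 1, and Itga4 between -1.32 and -1.004; both were past 2-fold under each of the 10. Maea in the same comparison lay between -0.17 and 0.22. Scaling by the median ratio of genes moved all genes of this comparison by 0.20, those of early over globin-rich cells by -0.84 and those of middle over early cells by 0.30, and the other comparisons by less. In endothelial-gated cells the count past 2-fold went from 1 to 0 under the stricter gate. For early over globin-rich cells it went from 4 to 2 under the stricter gate and lay between 3 and 6 otherwise; Itga4 also passed at the 40% mitochondrial limit, with droplets of 2 lineages kept and at 1.5-fold, Icam4 at 1.5-fold, under median-ratio scaling and without globin and mitochondrial UMIs (there with Dnase2a), while Vcam1 did not pass with such droplets kept, nor Itgb1 on the last 2 scales. For middle over early cells it went from 1 to 0 under the stricter gate, to 2 without globin and mitochondrial UMIs, with median-ratio scaling and with droplets of 2 lineages kept, and to 3 at 1.5-fold; the cause was not tested. No gene past 2-fold changed sign under these settings, apart from the globin scale given above for the stages. The minimum level and the stage comparisons were added after seeing the data. No paired analysis was possible because each genotype has 1 mouse and no result comes from a test.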

Other observations

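Endothelial-gated cells held further differences among the partner genes. Of 18 measurable island partners, 3 were past 2-fold higher in library 2 and 3 were lower, beside 3.79% higher and 9.12% lower of 5253 genes tested. Itgb3, the β3 chain that pairs with αV, was 23.3 CPM (20 UMIs) in library 1 and 221 CPM (122 UMIs) in library 2, a log2 ratio of 3.25. Gas6, which bridges phosphatidylserine to the receptors Axl and Mertk, was 380 and 81.6 CPM (log2 -2.22). Fn1, which encodes the α4β1 and α5β1 ligand fibronectin, was 25.6 and 77.9 CPM (log2 1.60), and Ephb4, a receptor of venous endothelium, 193 and 88.8 CPM (log2 -1.12). These values rest on 268 and 121 cells of 1 mouse each and have no replicate check. The gated cells of the 2 libraries differed in marker RNA, at 16223 and 10830 CPM of endothelial markers and 2054 and 5876 CPM of Kupffer markers. These partner genes were not taken through the stricter gate.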
